A study of Mus musculus with 2 samples.

Results

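Polycomb, DNA methylation and HDAC genes encode the enzymes and readers that keep genes repressed through marks on chromatin, and 36 of them were followed in ureters treated with the WNT signaling agonist BIO. The members form a list of named genes that was drawn up with earlier results of these data known. Every non-control probe whose gene name in the scanner files was 1 of the 36 symbols was taken, which gave 68 probes for 36 of the 29864 genes on the array. Of these probes, 65 were bright enough to be tested, and all 36 genes were tested through their brightest probe, as were 21574 genes in all. The samples were pools of wildtype NMRI mouse ureters dissected at E12.5 and cultured as explants for 18 h on membranes. Treated pools received 10 µM BIO, an inhibitor of the kinase GSK3 that is used to stabilize CTNNB1 and so to activate canonical WNT signaling, and that was given to whole explants and not to 1 tissue of them. Control pools received the solvent, DMSO, diluted 2 in 1000, serum was left out of the medium of both, and the sex of the embryos was not determined. Each of 2 Agilent 2-color arrays compared 1 treated with 1 control pool, and the dyes were exchanged between the arrays.

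Polycomb repressive complex 2 (PRC2) methylates histone H3 on H3K27, and complex 1 (PRC1) binds this mark and ubiquitinates histone H2A. HP1 proteins bind methylated histone H3 in heterochromatin. DNA methyltransferases add methyl groups to cytosine and TET enzymes oxidize them, whereas histone deacetylases (HDACs) remove acetyl groups from histones and other proteins. Both Polycomb complexes are known for silencing developmental regulators in embryonic tissues, and maintenance of DNA methylation is coupled to DNA replication.

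Values are log2 ratios of BIO over control within an array, so that 0 means equal signals, a positive value means more signal with BIO and 1 means a doubling. Intensities had been background-corrected and the ratios normalized by loess, and the ratios of both arrays were tested against 0 with limma, a linear model that borrows information on the spread from all probes. A gene was called risen or fallen at an adjusted p below 0.05. RNA was taken from whole ureters, so a change in the share of a cell type and a change of RNA per cell cannot be told apart. This holds for rises as for falls.

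With BIO, 9 of the 36 members rose (25%), while 9.13% of all genes tested did. Fallen members numbered 3 (8.33%), against 14.8% of all genes, and for both directions together the background was 23.9%. The risen members were Uhrf1, Hdac9, Ezh2, Cbx2, Hdac3, Suz12, Dnmt1, Cbx5 and Bmi1, and the fallen members were Rnf2, Ezh1 and Hdac5. For each of these 12 the arrays agreed in sign, and for 17 of the 24 members not called they did too. The median log2 ratio over the 36 members was 0.08, with 0.11 in replicate 1 and 0.05 in replicate 2, and it was -0.01 over all genes. Sizes were moderate. The largest log2 ratio, that of Uhrf1, was 0.81, and the largest fall, that of Rnf2, was -0.48. Of 19 members with several tested probes, 13 had 1 sign on all of them, and 0 had probes called in opposite directions. Across the 36 members the arrays had a Pearson correlation of 0.81, given as a description over genes that share both arrays.

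**Figure D1:**
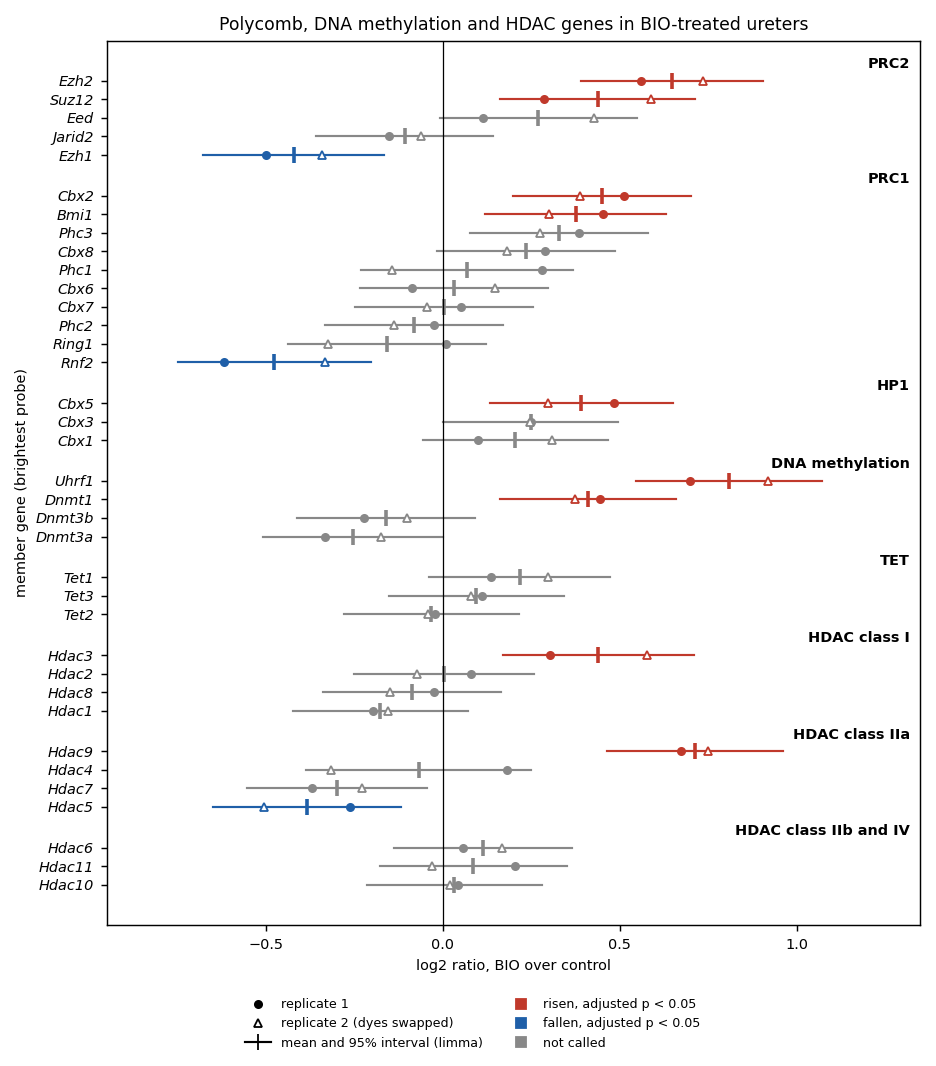
Log2 ratio of BIO over control (x axis) of the brightest probe of each of the 36 members (y axis), ordered by role. Filled circles are replicate 1, open triangles the dye-swapped replicate 2, vertical ticks the mean of both and horizontal lines its 95% interval from limma. The 9 risen members (red) have means from 0.38 to 0.81, the 3 fallen members (blue) from -0.48 to -0.38, and the 24 gray members from -0.30 to 0.33.

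For 32 of the 36 members the RefSeq table of GRCm38.p6 listed promoters, 46 in all, each running from 250 bases before to 50 bases after a transcript start. Of 2 motifs searched on both strands, the first, the site of the cell-cycle regulators of the E2F family, was spelled TTTCCCGC, TTTGGCGC, TTTCGCGC or TTTGCCGC. The other motif, that of TCF/LEF, the DNA-binding partners of CTNNB1, was spelled CTTTGAT or CTTTGAA, and neither motif contains the other. E2F letters stood in 2.26% of 32851 mouse promoters of this length, and in 5 of the 46 members' promoters (10.9%), each of a different gene. Counted by gene, the shares were 2.6% of 27025 genes and 15.6% of the 32 members. Of the 5 member genes, 4 were among the 7 risen members with a listed promoter, namely Dnmt1, Ezh2, Suz12 and Uhrf1. The others were 1 of 22 members not called, Cbx3, and 0 of 3 fallen members. TCF/LEF letters were in 8.65% of all promoters and in 6.52% of the members' promoters, those of Dnmt1, Suz12 and Phc1. The other risen members with a listed promoter had no E2F letters. The stretches with E2F letters are printed so that the promoters of the 4 risen members can be read beside that of Cbx3, which was not called. Each is 30 bases long and read 5′ to 3′ on the strand of its gene, with the E2F letters in capitals:
Cbx3, chr6:51470437-51470466, plus strand: tggagccccgcTTTGGCGCgctccgagacg
Dnmt1, chr9:20952824-20952853, minus strand: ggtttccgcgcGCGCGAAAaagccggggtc
Ezh2, chr6:47595009-47595038, minus strand: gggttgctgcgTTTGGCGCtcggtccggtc
Suz12, chr11:79992876-79992905, plus strand: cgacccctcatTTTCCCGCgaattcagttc
Uhrf1, chr17:56304117-56304146, plus strand: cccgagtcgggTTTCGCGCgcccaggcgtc

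In Dnmt1 the capitals are the motif read on the opposite strand, and the same window held another E2F spelling, TTTGGCGC, 34 bases after the start. In Ezh2 the letters began 4 bases after the start, so they lie within the transcript. Dnmt1 has 3 listed starts and Uhrf1 and Cbx3 have 2 each, and the match is in the window of only 1 of them. Suz12 has a single listed start, and its 250 bases before it, chr11:79992856-79993105 on the plus strand, are shown whole because they hold both motifs. Capitals mark E2F letters first and then TCF/LEF letters, which here read in the reverse direction:
Suz12 promoter: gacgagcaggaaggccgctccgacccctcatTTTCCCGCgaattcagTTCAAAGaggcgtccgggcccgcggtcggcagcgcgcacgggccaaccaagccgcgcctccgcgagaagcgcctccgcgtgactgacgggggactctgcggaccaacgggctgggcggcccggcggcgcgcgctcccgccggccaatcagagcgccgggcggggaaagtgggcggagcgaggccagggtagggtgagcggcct

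A match of letters describes the sequence, and binding was not measured.

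PRC2 gave calls in both directions. Its catalytic subunits are Ezh2 and Ezh1, which alternate in the complex, and they moved oppositely. The Ezh2 probe lies at chr6:47480307-47480366 (minus strand) and the brightest Ezh1 probe at chr11:101052430-101052489 (minus strand) of mm9, the build of the file headers, in which all probe positions are given. The processed signal of Ezh2 went from 7359 (control) to 11289 (BIO) in replicate 1 and from 7744 to 13306 in replicate 2. Its log2 ratios of 0.56 and 0.73 gave a mean of 0.65 ± 0.11 (SE, n = 2 arrays; limma adjusted p = 0.00466), a rise of 1.57-fold. Ezh1 went from 3238 (control) to 2379 (BIO) in replicate 1 and from 3530 to 2864 in replicate 2. Its log2 ratios were -0.50 and -0.34, with a mean of -0.42 ± 0.11 (SE, n = 2 arrays; limma adjusted p = 0.0284). BIO was thus the brighter channel for Ezh2 and the dimmer for Ezh1 on both arrays, and the difference of their log2 ratios, Ezh2 minus Ezh1, was 1.06 in replicate 1 and 1.08 in replicate 2. This pair was picked out after its values were seen, and its difference is a description. Ezh1 has 3 further tested probes, of which 1 fell as well, at -0.38 (limma adjusted p = 0.0407), and the others, at -0.25 and -0.14, were not called.

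Suz12, the scaffold of PRC2 (probe at chr11:79847251-79847310, plus strand), rose with log2 ratios of 0.29 and 0.59 and a mean of 0.44 ± 0.12 (SE, n = 2 arrays; limma adjusted p = 0.0328). Eed, the subunit that binds methylated histone H3, had 0.11 and 0.43 and was not called (limma adjusted p = 0.149). Both had the higher ratio in replicate 2, as Ezh2 did. Jarid2, an accessory subunit that helps recruit the complex, stood at -0.15 and -0.06 and was not called. Of the 6 other PRC2 subunits, 0 rose and 2 fell. Rbbp7, a histone chaperone that also belongs to HDAC complexes, had -0.53 and -0.47 (limma adjusted p = 0.0127). Phf19, a Polycomb-like subunit that reads histone marks, had -0.52 and -0.58 (limma adjusted p = 0.00851). Rbbp4, the close relative of Rbbp7, stood at -0.05 and -0.03.

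PRC1 showed the same mixture. Rnf2, encoding the E3 ligase RING1B that ubiquitinates histone H2A, had the largest fall of all members (probe at chr1:153316987-153317046, minus strand). Its signal went from 15563 (control) to 11143 (BIO) in replicate 1 and from 16366 to 12837 in replicate 2. The log2 ratios of -0.62 and -0.33 had a mean of -0.48 ± 0.12 (SE, n = 2 arrays; limma adjusted p = 0.0229), so control was 1.39-fold higher. The paralogous ligase Ring1 had 0.01 and -0.32 and was not called (limma adjusted p = 0.406). In replicate 2 both ligases lay at nearly the same ratio, whereas in replicate 1 Ring1 minus Rnf2 was 0.63.

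Bmi1, a Polycomb group RING finger protein that pairs with these ligases (probe at chr2:18607531-18607590, plus strand), rose instead, with 0.45 and 0.30 and a mean of 0.38 ± 0.11 (SE, n = 2 arrays; limma adjusted p = 0.0429). A further Bmi1 probe rose likewise, with 0.31 and 0.52 (limma adjusted p = 0.0339). Bmi1 was the risen member with the smallest mean. Cbx2, a chromodomain subunit that binds methylated H3K27 (probe at chr11:118892363-118892422, plus strand), rose with 0.51 and 0.39 (mean 0.45 ± 0.11, SE, n = 2 arrays; limma adjusted p = 0.0212), from 5776 to 8023 in processed signal in replicate 1 and from 6251 to 8641 in replicate 2. The other chromodomain subunits were not called. Cbx8 had 0.29 and 0.18, Cbx6 -0.09 and 0.15, and Cbx7 0.05 and -0.05. Cbx7 could hardly be judged, since its processed signals, at most 19.6, lay at or near the floor of 15 set for these signals. Among the polyhomeotic subunits, which polymerize through their SAM domain, Phc3 had 0.38 and 0.27 and missed the threshold (limma adjusted p = 0.0636). Phc1 had 0.28 and -0.14, and Phc2 -0.02 and -0.14. The 2 dimmer tested probes of Phc3 stood at 0.00 and -0.06 on average. Of the 14 other PRC1 subunits tested, limma called 0, with 2 at an unadjusted p under 0.05 (Pcgf2 and Scmh1), and their means ran from -0.18 for Rybp to 0.33 for Scmh1. Pcgf2, the paralog of Bmi1, was at 0.23 and 0.37 (limma adjusted p = 0.088).

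A list of 6 H3K27 and H2A erasers held enzymes that remove these marks and Asxl1 and Asxl2, cofactors of the deubiquitinase BAP1. Kdm6a, an H3K27 demethylase, fell with -0.29 and -0.47 (limma adjusted p = 0.044), and its paralog Kdm6b had 0.28 and -0.28. The other 4 were not called.

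All 3 HP1 genes had positive ratios on both arrays, and 1 was called. Cbx5, encoding HP1 alpha (brightest probe at chr15:103029698-103029757, minus strand), rose with 0.49 and 0.30 (mean 0.39 ± 0.11, SE, n = 2 arrays; limma adjusted p = 0.0389). Its further probe rose as well, with 0.44 and 0.58 (limma adjusted p = 0.0124). Cbx3 had 0.25 on both arrays and Cbx1 0.10 and 0.31, and neither passed the test through its brightest probe. A dimmer Cbx1 probe did pass, with 0.32 and 0.60 (limma adjusted p = 0.0264), so the call on Cbx1 depends on the probe.

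Among the genes of DNA methylation, the maintenance pair rose and the de novo enzymes were not called. Uhrf1, which recognizes hemimethylated DNA behind the replication fork and recruits DNMT1, had the largest ratio of all members (brightest probe at chr17:56462770-56462829, plus strand). Processed signals rose from 7641 (control) to 12811 (BIO) in replicate 1 and from 8084 to 15893 in replicate 2. The log2 ratios of 0.70 and 0.92 gave a mean of 0.81 ± 0.11 (SE, n = 2 arrays; limma adjusted p = 0.00183), a rise of 1.75-fold. The further Uhrf1 probe had 0.68 and 0.64 (limma adjusted p = 0.00356). Both probes were thus higher with BIO on both arrays by more than the difference between the arrays.

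Dnmt1, the maintenance methyltransferase (probe within chr9:20711973-20712341, minus strand), rose from 2523 to 3526 in replicate 1 and from 2550 to 3355 in replicate 2, with log2 ratios of 0.44 and 0.37 (mean 0.41 ± 0.11, SE, n = 2 arrays; limma adjusted p = 0.0289). Dnmt3a, a de novo methyltransferase, had -0.33 and -0.18 and was not called (limma adjusted p = 0.141). Dnmt3b, the other one, had -0.22 and -0.10 (limma adjusted p = 0.339), and its 2 dimmer probes had opposite signs on the 2 arrays. Dnmt1 lay above Dnmt3a by 0.78 in replicate 1 and 0.55 in replicate 2, and above Dnmt3b by 0.67 and 0.47, differences that were described and not tested. Of 9 further readers and repair factors, 1 was called. Mbd4, a glycosylase that binds methylated DNA, rose with 0.78 and 0.38 (limma adjusted p = 0.0138). Uhrf2, the paralog of Uhrf1, had 0.41 and 0.28 (limma adjusted p = 0.0575).

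Of the 3 TET genes limma called 0, and 0 had an unadjusted p under 0.05. Tet1 had 0.14 and 0.30, Tet2 -0.02 and -0.04, and Tet3 0.11 and 0.08. The 95% interval of the mean ran from -0.04 to 0.47 for Tet1, from -0.28 to 0.22 for Tet2 and from -0.15 to 0.34 for Tet3, so changes of that size were not excluded by the arrays. A dimmer probe each of Tet1, with -0.65 and 0.29, and of Tet2, with -0.51 and 0.28, turned sign between the arrays.

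**Figure D2:**
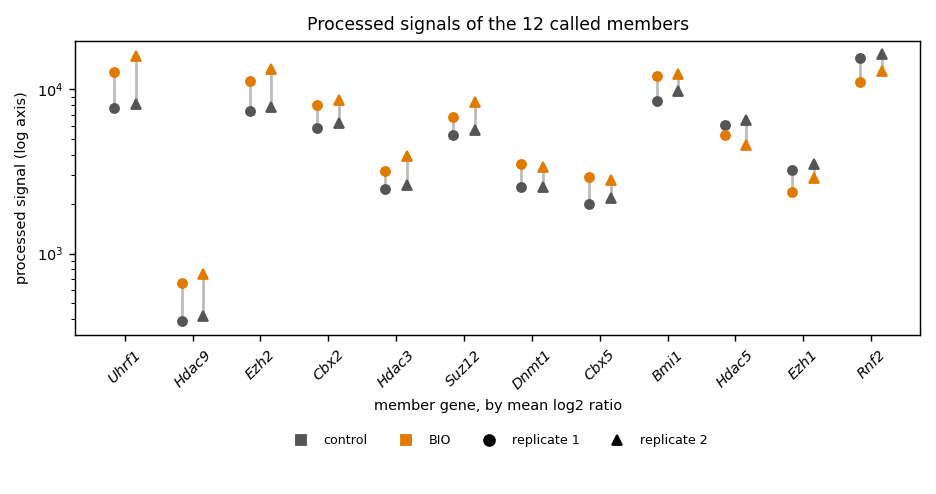
Processed signal (y axis, log scale) of the brightest probe of the 12 called members (x axis, by mean log2 ratio). Gray points are control and orange points BIO, circles are replicate 1 and triangles replicate 2, and each line joins the channels of 1 array. From Uhrf1 to Bmi1 BIO is the higher channel on both arrays, and from Hdac5 to Rnf2 it is the lower one. Signals of different probes are not to be compared as transcript levels.

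The HDAC genes fell into a few called members and many without a call. In class I, the nuclear enzymes of the corepressor complexes, Hdac3, the catalytic subunit of the NCoR and SMRT complexes, rose. Its signal went from 2482 to 3189 in replicate 1 and from 2621 to 3908 in replicate 2, with log2 ratios of 0.30 and 0.58 (mean 0.44 ± 0.12, SE, n = 2 arrays; limma adjusted p = 0.0302). Hdac1 and Hdac2, which share the Sin3, NuRD and CoREST complexes, were not called. Hdac1 had -0.20 and -0.16 and Hdac2 0.08 and -0.07. The 2 further Hdac1 probes averaged 0.05 and 0.01. Hdac8 had -0.03 and -0.15 at a low signal of 75.4 to 90.1.

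In class IIa, whose proteins shuttle between nucleus and cytoplasm and bind MEF2 factors, calls went both ways. The brightest Hdac9 probe lies at chr12:35056405-35056464 and the Hdac5 probe at chr11:102057076-102057135, both on the minus strand. A further Hdac9 probe, at chr12:34792084-34792143 on the same strand, was too dim to be tested. The Hdac9 values that follow are those of the brightest probe, and which Hdac9 transcripts changed was not tested. The signal of Hdac9 went from 386 (control) to 662 (BIO) in replicate 1 and from 418 to 749.6 in replicate 2. Its log2 ratios of 0.67 and 0.75 gave a mean of 0.71 ± 0.11 (SE, n = 2 arrays; limma adjusted p = 0.00263), a rise of 1.64-fold. That of Hdac5 went from 6075 (control) to 5251 (BIO) in replicate 1 and from 6530 to 4564 in replicate 2. Its log2 ratios of -0.26 and -0.51 had a mean of -0.38 ± 0.12 (SE, n = 2 arrays; limma adjusted p = 0.0456). Hdac9 minus Hdac5 was 0.94 in replicate 1 and 1.26 in replicate 2, a pair likewise picked out after its values were seen. Hdac7 had -0.37 and -0.23 (limma adjusted p = 0.0884), and Hdac4 had 0.18 and -0.32, with opposite signs. Hdac6, the cytoplasmic tubulin deacetylase, and Hdac10, both of class IIb, and Hdac11, of class IV, had means of 0.11, 0.03 and 0.09, and none was called.

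Around the HDACs, 14 further subunits of their corepressor complexes gave 1 rise and 1 fall. Rcor1, a subunit of CoREST, rose with 0.59 and 0.24 (limma adjusted p = 0.0442), and Sin3b, a Sin3 scaffold, fell with -0.41 and -0.36 (limma adjusted p = 0.0366). Of 7 sirtuins, the NAD-dependent deacetylases, and 9 histone acetyltransferases, limma called 0, with 0 sirtuins and 1 acetyltransferase, Kat2b, at an unadjusted p under 0.05. The means of the sirtuins ran from -0.16 to 0.10 and those of the acetyltransferases from -0.27 to 0.25.

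**Figure D3:**
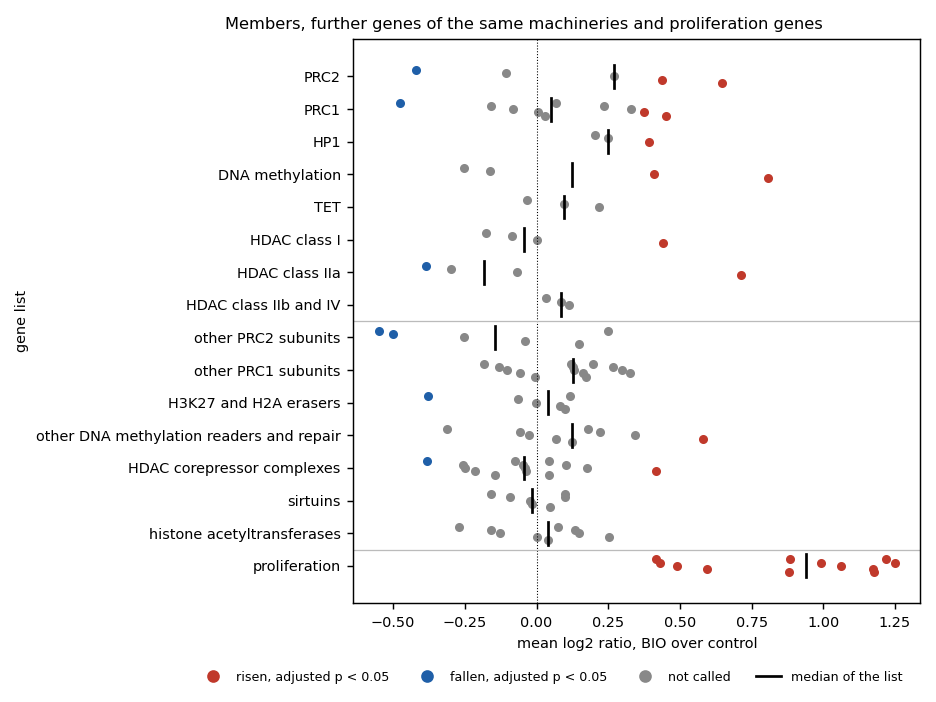
Mean log2 ratio of BIO over control (x axis) of each gene of the members' groups (top), of further genes of the same machineries (middle) and of proliferation genes (bottom), with red for risen, blue for fallen and gray for not called. Vertical black lines are medians of the lists. The 12 proliferation genes all lie at 0.42 or above, while the medians of the members' groups run from -0.18 to 0.27.

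Genes of proliferation rose beside the 9 risen members. All 12 proliferation genes tested rose, from 0.42 for Mcm6, a helicase subunit of replication, to 1.25 for Aurkb, a mitotic kinase, with a median of 0.94. Their summed processed signal went from 75786 in control to 128932 with BIO in replicate 1 and from 86108 to 150056 in replicate 2. The ratios of the 9 risen members, 0.38 to 0.81, lay within or below that range, and the part of proliferation in them was not tested.

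Markers of tissues fell at the same time. Endothelial markers fell in 8 of 8 genes with a median of -2.01, and their summed signal went from 25243 to 4638 in replicate 1 and from 29916 to 8691 in replicate 2. Ureteric mesenchyme markers fell in 9 of 10 genes (median -0.85) and epithelial markers in 4 of 8 (median -0.52). Their summed signals with BIO were 0.572 and 0.598 of control for mesenchyme, and 0.588 and 0.694 of control for epithelium, in replicates 1 and 2. Such sums are weighted to the brightest probes, here those of collagens and of Krt8 and Krt18. Not called were Tbx18 (mean -0.22) in mesenchyme, and Epcam (0.02), Cldn7 (-0.06), Gata3 (-0.10) and Grhl2 (-0.16) in epithelium. Macrophage, erythroid and neural crest markers each fell in 3 of 5 genes, with medians from -0.64 to -0.49. No marker was at the floor in both replicates of either group, so the tissues named by the labels were represented in both. The part of these shifts in the rises of members and in the falls of Rnf2, Ezh1 and Hdac5 was not tested.

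How firmly a call stood differed between members. With the processed signals of the scanner software in place of normexp and loess, 3 members rose, Uhrf1, Ezh2 and Hdac9, or 8.33% against 3.69% of all genes, and 0 fell, against 5.22% (limma; 12 risen and 2 fallen at an unadjusted p under 0.05). With median centering in place of loess, 2 rose, Uhrf1 and Ezh2, or 5.56% against 3.83%, and 0 fell, against 8.99% (limma; 7 and 1 at an unadjusted p under 0.05). The called members lost under these settings had the same sign as before. With the rounded scores of the deposited table, 3 rose (8.33%), fewer in share than the 8.94% of all genes, and 1 fell (2.78%), against 6.11% (limma). The higher share of risen members was thus not seen with those scores. Over all 7 ways tried of making the ratios, the mean lay at 0.73 to 0.88 for Uhrf1 and 0.65 to 0.70 for Ezh2. It stayed between 0.58 and 0.85 for Hdac9 and between -0.48 and -0.36 for Rnf2. The call held under 6 of the 7 for Uhrf1, Ezh2 and Hdac9, and under 5 for Cbx2. It held under 4 for Dnmt1, Hdac3 and Rnf2, under 3 for Bmi1, Cbx5, Ezh1 and Suz12, and under 2 for Hdac5. With the mean of all probes of a gene, Ezh1 was at -0.30 and not called (limma adjusted p = 0.0648). By the rule of at least 2-fold on both arrays at an intensity of at least 100, 0 members passed, where 0.753% of all genes were up and 1.47% down. At 1.5-fold, Ezh2, Hdac9 and Uhrf1 were up, as were 2.45% of all genes, and 0 members were down, against 3.5%.

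**Figure D4:**
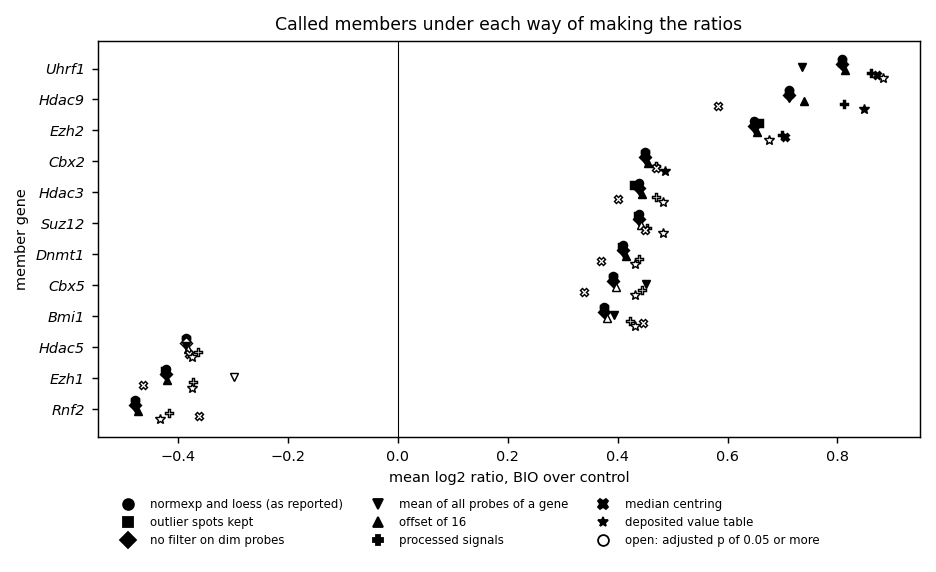
Mean log2 ratio of BIO over control (x axis) of the 12 called members (y axis) under the reported processing and 7 alternatives, 1 symbol each, with filled symbols where the adjusted p from limma was below 0.05. No symbol of any called member crosses 0, and Uhrf1, Ezh2 and Hdac9 are filled under 6 of the 7 alternatives each.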

How the data were processed

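Polycomb, DNA methylation and HDAC genes were read from 2 Agilent 2-color arrays with a dye swap. The members and all gene lists were chosen with earlier results of these data known. The authors deposited scanner tables made with Agilent Feature Extraction 10.7.3.1, which hold raw mean and local background intensities and processed signal intensities (background-subtracted and dye-normalized), and a value table of rounded scores, whose making is not given in the sources used here. Set against the processed ratios (Spearman 0.978 and 0.976), each score behaves as the BIO to control ratio, inverted with a minus sign where control is higher, and its centering remains unknown beyond a median of 1 in both columns. Of the spots, 70.1 to 80.9% per channel were well above background, 0 were saturated, and the number of arrays limits the precision (median SE 0.111).

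With limma 3.58.1 in R 4.3.3, intensities were corrected by normexp (offset 50) and normalized by loess, with control and outlier spots given weight 0 and then left out. The 4 spots of a probe were averaged, and the sign of the swapped array was turned. A probe was tested when more than 0.5 of its spots were well above background in 1 group on both arrays. This left 28824 of 39429 probes, tested by lmFit and eBayes against 0, two-sided, with Benjamini-Hochberg adjustment over all of them. The fit was tested on simulated data. A gene was represented by its brightest probe. The offset pulls ratios of dim probes toward 0. Array probes were named through RefSeq (GRCm38.p6), 28328 by accession, 3400 by symbol and 243 by synonym, and 7458 kept the file's name. All members are named, with full statistics for those called, and of the further lists the called genes and close paralogs, the latter chosen after values were seen. The study's methods describe separate pools, so the spread between the arrays includes that between pools, and both arrays lay on 1 slide. The spread behind each p-value and SE was drawn largely from all probes (limma prior with 7.14 degrees of freedom, SD 0.162). The differences between the arrays at the single probe had less weight in it. Alternatives were processed signals, median centering, an offset of 16, no filter, outliers kept, the mean of all probes and the deposited scores.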

Additional observations from a re-analysis of the deposited data

How the results depend on the processing

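Over all genes, 5154 changed as reported, 1923 from processed signals, 2766 after median centering and 3248 from the deposited scores (limma). Members risen numbered 3, 2 and 3 and members fallen 0, 0 and 1 under these alternatives, in place of 9 and 3. With the deposited scores the share of risen members, 8.33%, was below that of all genes, 8.94%. The deposited scores are rounded, 5739 probes have identical scores on both arrays, and their calls were Cbx2, Hdac6 and Hdac9 risen and Dnmt3b fallen. An offset of 16, no filter on dim probes, outlier spots kept and the mean of all probes gave 6 to 9 risen and 2 or 3 fallen members. The median of the members was 0.129 with the deposited scores, and 0.05 and 0.11 without replicate 1 and without replicate 2. At 1.5-fold in place of 2-fold, 3 members passed the fold rule. With 1 array left out there is no test. Of 252 member values under the 7 alternatives, 35 lost and 2 gained a call, and 6 of members not called turned sign near 0. These were Hdac1 (0.0407), Hdac10 (-0.0373), Hdac11 (-0.0468) and Phc2 (0.00868) with median centering, and Phc2 (0.00825) and Tet3 (-0.0498) with the mean of all probes. The cause was not tested. The test was paired by design, because each ratio was taken between the BIO and control pools of 1 array. With 2 arrays as processed for the report, the smallest called log2 ratio over all genes was 0.35 in size, and a member not called may still have changed by less or by a similar amount.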
